A study of Homo sapiens with 12 samples.

Results

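The genes of MHC class I antigen presentation were followed across TC32 and SKNMC, 2 established lines from Ewing sarcoma, a tumour of bone and soft tissue that carries a fused EWSR1 and ETS gene. Each line received either DMSO vehicle at 0.1% by volume or NU7441 at 40 µM for 48 h, and 3 Illumina BeadChip arrays of total RNA were run for each of the 4 groups. NU7441 inhibits the DNA-dependent protein kinase, which acts in the joining of broken DNA ends. The 9 genes are HLA-B, HLA-C, HLA-E, HLA-F, B2M, TAP1, TAP2, TAPBP and NLRC5. They were chosen by name and not by a threshold on their values, but with earlier results of these data known. The array carried 15 probes for them among its 47319 probes. A probe was kept when its detection p-value, which sets it against the negative control beads, was under 0.05 on at least 3 of the 12 arrays, and 12 of the 15 probes, standing for 8 of the 9 genes, passed. A further probe of HLA-C was detected on 0 arrays and a further probe of TAPBP on 1 array.

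Class I molecules show fragments of the cell's own proteins to CD8 T cells. A polymorphic heavy chain, such as HLA-B or HLA-C, pairs with the light chain beta-2-microglobulin, made from B2M. TAP1 and TAP2 form the transporter that carries peptides from the cytosol into the endoplasmic reticulum, and tapasin, made from TAPBP, bridges the transporter and the empty heavy chain while peptide is loaded. HLA-E carries peptides from the leader sequences of other class I chains and is read by receptors of natural killer cells, and HLA-F is a further nonclassical heavy chain. NLRC5 is a transactivator that raises transcription of class I genes together with the RFX complex bound at their promoters. Ewing sarcoma is known as a tumour in which class I is often weakly expressed.

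All members but B2M (chromosome 15) and NLRC5 (chromosome 16) lie on chromosome 6 in the GRCh38.p14 assembly, and all are protein-coding. TAP2 (32821831 to 32838739) and TAP1 (32845209 to 32853704) stand beside PSMB8 and PSMB9, which encode immunoproteasome subunits. The gaps are 1977 bases from TAP2 to PSMB8, 529 bases from PSMB8 to TAP1 and 487 bases from TAP1 to PSMB9. HLA-F (29723434 to 29738532), HLA-E (30489509 to 30494194), HLA-C (31268749 to 31272092), HLA-B (31353875 to 31357179) and TAPBP (33299694 to 33314078) lie on either side of them. The class I heavy chain genes are near-identical in places and vary between people, the probe sequences were not used here, and whether a heavy chain probe reads its own gene alone, or both lines' alleles equally, was not tested.

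Promoters of 5 members are shown because HLA-B, TAP1 and TAP2 were called lower with NU7441 in SKNMC and HLA-C and B2M were not. TAP1 shares the chromosome 6 cluster with TAP2. Each is the RefSeq sequence of the 250 bases before the gene start, on the gene's strand, from GRCh38.p14. Such windows were matched for 7 of the 9 members, all but HLA-E and NLRC5. Capitals mark matches, on either strand, to 2 copies of GAAA with 2 bases between them (a spaced form of the interferon-stimulated response element), GAANNGAAA (a shorter form of it), GGGNNTTCC (kappa B, bound by NF-kappa-B), TGACGC (the core of the X2 box) or ATTGG (the Y box, an inverted CCAAT). Matches of the spaced GAAA motif may overlap each other or the second motif.
HLA-B (chr6:31357180-31357429, minus strand): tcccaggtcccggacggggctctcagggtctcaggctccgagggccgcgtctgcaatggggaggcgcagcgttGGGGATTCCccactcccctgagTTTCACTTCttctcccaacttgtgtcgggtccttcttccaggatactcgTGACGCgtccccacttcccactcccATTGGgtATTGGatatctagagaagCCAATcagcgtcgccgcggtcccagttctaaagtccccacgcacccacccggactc
HLA-C (chr6:31272093-31272342, minus strand): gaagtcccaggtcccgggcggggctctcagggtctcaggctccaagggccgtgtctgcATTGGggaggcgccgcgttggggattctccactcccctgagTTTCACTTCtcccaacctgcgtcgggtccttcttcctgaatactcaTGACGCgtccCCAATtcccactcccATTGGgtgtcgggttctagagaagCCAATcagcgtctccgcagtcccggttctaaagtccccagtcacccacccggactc
B2M (chr15:44711267-44711516, plus strand): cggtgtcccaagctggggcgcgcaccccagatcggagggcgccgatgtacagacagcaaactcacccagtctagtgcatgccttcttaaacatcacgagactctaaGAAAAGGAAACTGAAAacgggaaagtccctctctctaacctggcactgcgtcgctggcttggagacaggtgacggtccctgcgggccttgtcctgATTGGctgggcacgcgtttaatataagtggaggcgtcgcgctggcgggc
TAP1 (chr6:32853705-32853954, minus strand): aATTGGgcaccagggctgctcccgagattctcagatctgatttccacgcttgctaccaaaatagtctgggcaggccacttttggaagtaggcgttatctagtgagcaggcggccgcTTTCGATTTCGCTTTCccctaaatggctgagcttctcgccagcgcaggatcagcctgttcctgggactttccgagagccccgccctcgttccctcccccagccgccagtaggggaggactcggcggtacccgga
TAP2 (chr6:32838740-32838989, minus strand): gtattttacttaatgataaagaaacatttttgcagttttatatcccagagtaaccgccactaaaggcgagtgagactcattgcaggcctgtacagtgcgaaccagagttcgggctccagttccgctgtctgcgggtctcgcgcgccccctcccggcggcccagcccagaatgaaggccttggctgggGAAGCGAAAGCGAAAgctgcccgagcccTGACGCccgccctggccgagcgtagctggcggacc
The HLA-B and HLA-C windows were identical at 91.9% of aligned positions and the HLA-B and HLA-F windows at 83.7%, whereas HLA-B and TAP1 matched at 61.1% and HLA-B and B2M at 57.9%. The HLA-B window held 1 GAANNGAAA, 1 GGGNNTTCC, 1 TGACGC and 3 ATTGG, and the HLA-C window held 1 GAANNGAAA, 1 TGACGC and 4 ATTGG with no GGGNNTTCC. B2M and TAP1 each held 2 overlapping spaced GAAA motifs and 1 ATTGG. TAP2 held 1 spaced GAAA motif that overlaps a GAANNGAAA, and 1 TGACGC. Of the windows not shown, HLA-F held 1 spaced GAAA motif and 2 ATTGG. TAPBP held 2 overlapping spaced GAAA motifs and 1 GGGNNTTCC. Of 35116 RefSeq promoters in the same 250-base window, 3.02% held the spaced GAAA motif, 6.56% GAANNGAAA, 5.78% GGGNNTTCC, 7.67% TGACGC and 32% ATTGG. The motifs were picked with these sequences in view, and a match is a description of letters, not a bound site. GGGNNTTCC is a form of kappa B, and forms with another spacing were not searched for. The TAP1 window holds gggactttcc, and the B2M window holds it on the other strand, both in lower case.

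The number of probes detected on an array ran from 17944 to 20148 and its mean raw intensity from 158 to 199. Levels below are log2 intensities after background correction and quantile normalization, and a difference of 1 is a doubling. Because an offset of 16 was added before the logarithm, differences of dim probes are understated. Whether arrays of a group came from different cultures is not said in the labels, and the p-values cover only the spread between arrays, perhaps of technical origin. The titles of the vehicle samples, and those alone, end in an unexplained (2), and a separate run of these samples, if that is its meaning, cannot be told apart from treatment. The probe of 28S ribosomal RNA (RNA28SN5) set some treated arrays apart: it read 4.33 on SKNMC NU7441 replicate 1 and 12.33 and 12.42 on replicates 2 and 3, 8.26, 9.33 and 12.69 on the TC32 NU7441 arrays, and at most 5.13 on any vehicle array. Where a member's call changes or its called value moves by over 1.5 times, its results with NU7441 are also given under a further setting, added after the values were seen. That setting leaves out the 3 arrays highest in the 28S signal (TC32 NU7441 replicate 3 and SKNMC NU7441 replicates 2 and 3). It leaves a lone SKNMC NU7441 array that is assumed to vary like the other groups. For genes outside the members such results are given for some only.

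Of 7 Ewing sarcoma markers, 6 were measured in these cells (CD99, NKX2-2, STEAP1, PRKCB, CCND1 and LIPI), and NPY1R was not. With NU7441 1 of the 6 was called higher and 3 lower in TC32, and 0 higher and 3 lower in SKNMC. The 3 were STEAP1, PRKCB and LIPI in each line. Without the 3 arrays highest in 28S signal they stood at -0.39, -1.29 and -1.24 in TC32. In SKNMC they then stood at -0.67, -0.58 and -1.05. Over all genes 11.9% were called higher and 13.4% lower in TC32, and 15% higher and 16.9% lower in SKNMC. The summed unlogged level of the 6 was 6650 to 7360 with vehicle and 6110 to 7430 with NU7441 in TC32. In SKNMC it was 7620 to 8050 with vehicle and 4980 to 7130 with NU7441. Of 10 leukocyte markers 3 were measured, and PTPRC, CD3D, CD3E, CD2, MS4A1, LYZ and CD48 were not. The summed unlogged level of those 3 leukocyte markers was 163 to 214 with vehicle and 254 to 532 with NU7441 in TC32, and 146 to 167 with vehicle and 228 to 388 with NU7441 in SKNMC. Of these, CD68 rose by 1.02 in TC32 (limma adjusted p = 0.0182) and 1.46 in SKNMC (limma adjusted p = 0.00186), CD14 differed by 0.22 and 0.04 without a call, and CORO1A differed by -0.10 in TC32 without a call and fell by 0.73 in SKNMC (limma adjusted p = 0.00456). Without the 3 arrays highest in 28S signal CD68 stood at 0.64 in TC32 and 1.04 in SKNMC. The 6 fibroblast markers summed to 573 to 686, 138 to 163, 918 to 1180 and 418 to 579 in the same order of groups. The leukocyte and fibroblast sums moved with treatment and with the line. What part any of these markers had in the results below was not tested. Of 3 endothelial markers 0 were measured.

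The level of each member on every array is plotted by group.

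**Figure D1:**
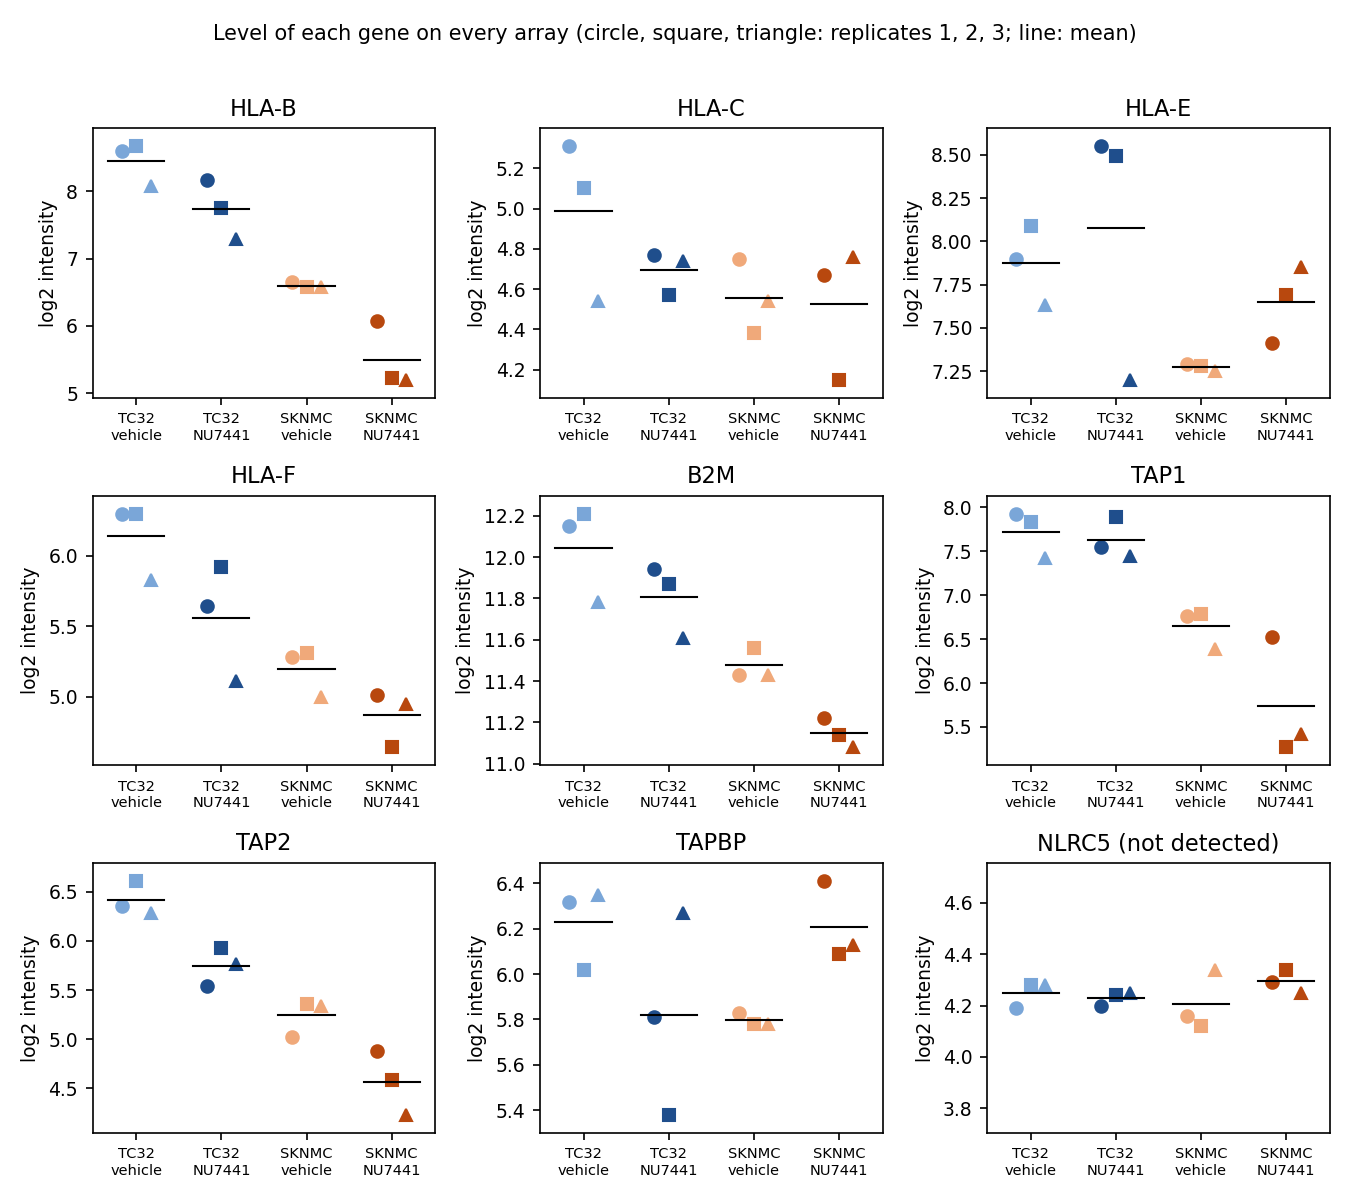
Log2 intensity of each gene (y axis, a panel for each gene, axes differ) on the 3 arrays of each group (x axis), with circle, square and triangle for replicates 1, 2 and 3 and a line at the mean. The HLA-B mean runs from 8.45 in TC32 vehicle to 5.50 in SKNMC NU7441, and NLRC5, not detected, has means from 4.21 to 4.29.

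The first comparison set TC32 against SKNMC under vehicle and asked how the lines differ before treatment. TC32 had the higher mean of all 8 measured genes, and 5 of them were called higher at an adjusted p under 0.05 and 0 lower. Over all 12171 genes tested, 5.44% were called higher in TC32 and 9.08% lower. The median difference was 0.77 over the 8 members and -0.0082 over all genes. Without normalization between arrays 8.31% were called higher and 6.52% lower, and all 8 members still had the higher mean in TC32. HLA-B and both transporter genes passed a doubling as well, as 1.37% of all genes did in that direction and 2.88% in the other. For 7 of the 8 members the arrays of the lines did not overlap, with TC32 above, which held for 19% of all genes, and for 22% with TC32 below.

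HLA-B, the heavy chain of a classical class I molecule, read 8.60, 8.67 and 8.07 in TC32 vehicle and 6.65, 6.57 and 6.57 in SKNMC vehicle. The groups do not overlap, and the lowest TC32 array lies well above the highest SKNMC array. TC32 was higher by 1.85 ± 0.25 (SE, n = 3 and 3), a 3.61-fold difference (limma adjusted p = 0.000161). HLA-F read 6.30, 6.30 and 5.83 in TC32 and 5.28, 5.31 and 5.0 in SKNMC, again without overlap, and was higher by 0.94 ± 0.20 (limma adjusted p = 0.00588). Its second, dimmer probe differed by 0.22 ± 0.15 and was not called.

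The transporter genes separated the lines as well. TAP2 read 6.36, 6.61 and 6.29 in TC32 vehicle and 5.02, 5.36 and 5.34 in SKNMC vehicle. No SKNMC array reached the lowest TC32 array, and the difference was 1.18 ± 0.18 (limma adjusted p = 0.000399). The dimmer TAP2 probe differed by 0.17 ± 0.12 and was not called. TAP1 read 7.93, 7.83 and 7.42 in TC32 and 6.76, 6.79 and 6.39 in SKNMC, a difference of 1.08 ± 0.27 (limma adjusted p = 0.0145) between groups that do not overlap.

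B2M, the light chain shared by all class I molecules, read 12.15, 12.21 and 11.78 in TC32 vehicle against 11.43, 11.56 and 11.43 in SKNMC vehicle. It was higher in TC32 by 0.57 ± 0.15 (limma adjusted p = 0.0172), and its second probe by 1.00 ± 0.14 (called, as were 4.4% of all probes in that direction). HLA-E (0.60 ± 0.28, limma adjusted p = 0.176), TAPBP (0.43 ± 0.19, limma adjusted p = 0.158) and HLA-C (0.43 ± 0.20, limma adjusted p = 0.186) did not pass. For HLA-E the lowest TC32 array, at 7.63, still lay above the highest SKNMC array, at 7.29. For TAPBP the corresponding values were 6.02 and 5.83, and the HLA-C arrays of the lines overlapped.

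The calls for HLA-B, HLA-F and TAP2 held with any single array left out. B2M lost its call without TC32 vehicle replicate 1 (0.52) or 2 (0.49) or SKNMC vehicle replicate 1 (0.55) or 3 (0.55), and TAP1 lost its call without TC32 vehicle replicate 1 (0.98) or 2 (1.03) or SKNMC vehicle replicate 3 (0.95), with adjusted p up to 0.0871.

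The second comparison asked how the class I genes of TC32 responded to NU7441. Of 8 genes measured, 2 were called lower, TAP2 and HLA-F, and 0 higher, and neither of these changed by as much as a doubling. Over all genes 13.4% were called lower and 11.9% higher, so 2 of 8 is read against that share. A call with a log2 difference of 1 or more was made for 0 members, and for 3.91% of all genes lower and 2.56% higher. The mean with NU7441 lay below vehicle for 7 of the 8 members, with a median difference of -0.35 against 0.00089 over all genes. HLA-B had a larger difference than either and missed the threshold. The balance depended on the scaling. Without normalization between arrays the median of all genes was -0.25, 30.5% of genes were called lower and 3.54% higher, and 4 members (HLA-B, HLA-F, TAP2 and TAPBP) were called lower, while HLA-E changed sign to -0.32 without a call.

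TAP2 read 5.54, 5.93 and 5.77 with NU7441 against 6.36, 6.61 and 6.29 with vehicle. Every treated array lay below every vehicle array, as for 20.3% of all genes (17.9% the other way) and 1 of the 8 members. The gene fell by 0.67 ± 0.18 on the log2 scale (SE, n = 3 and 3, limma adjusted p = 0.0135), which is 1.59-fold, and its second probe fell by 0.39 ± 0.12 (limma adjusted p = 0.0319 over all probes, of which 10.6% were called lower). TAP1, its partner in the transporter, read 7.55, 7.89 and 7.45 with NU7441 within the range of vehicle (7.42 to 7.93), and the difference was -0.10 ± 0.27 (95% interval -0.67 to 0.48).

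HLA-F read 5.64, 5.92 and 5.11 with NU7441 and 6.30, 6.30 and 5.83 with vehicle. The groups overlap by a single array, replicate 2 with NU7441 lying above replicate 3 with vehicle. The difference was -0.59 ± 0.20 (limma adjusted p = 0.0495), at the edge of the threshold, and the second HLA-F probe differed by -0.21 ± 0.15 without a call. HLA-B read 8.16, 7.75 and 7.29 with NU7441 against 8.60, 8.67 and 8.07 with vehicle, and the highest treated array lay above the lowest vehicle array. Its difference of -0.71 ± 0.25 did not pass (limma adjusted p = 0.053), but it passed under 8 of 13 alternatives, among them the replicate number as a block (limma adjusted p = 0.0178) and the submitters' log2 table (limma adjusted p = 0.035).

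The other members gave no call in TC32. HLA-E, the ligand of natural killer cell receptors, read 8.55, 8.49 and 7.20 with NU7441 and 7.90, 8.09 and 7.63 with vehicle, so that 2 treated arrays lay above and the third below every vehicle array. Its mean difference was 0.20 ± 0.28. TAPBP read 5.81, 5.38 and 6.27 against 6.32, 6.02 and 6.35 (-0.41 ± 0.19, limma adjusted p = 0.14). B2M differed by -0.24 ± 0.15 on its first probe and by -0.24 ± 0.14 on its second, and HLA-C by -0.29 ± 0.20, with overlapping arrays.

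The call for TAP2 was lost without vehicle replicate 2 (-0.58) or NU7441 replicate 1 (-0.57), and that for HLA-F in 9 of 12 such settings, down to -0.36 without NU7441 replicate 3. Without the 3 arrays highest in 28S signal, TAP2 was at -0.68, HLA-B at -0.49 (adjusted p = 0.0456, and from 0.00354 to 0.118 over its alternatives) and TAPBP at -0.64 (adjusted p = 0.00505, and from 0.00384 to 0.397) with calls, HLA-E was called higher at 0.65 (adjusted p = 0.00314, and from 0.00314 to 0.79), and HLA-F was at -0.36 with no call.

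The third comparison asked the same of SKNMC. Here 3 of the 8 genes were called lower, HLA-B, TAP1 and TAP2, and 0 higher, where 16.9% of all genes were called lower and 15% higher. HLA-B alone passed a fold of 2 in addition, which 5.64% of all genes did in that direction and 3.44% in the other. The median over the members was -0.33 against -0.00071 over all genes, and 6 of 8 means lay below vehicle. HLA-E and TAPBP lay above it. Without normalization between arrays the median of all genes was -0.10, 19.4% were called lower and 9.1% higher, and again 6 of 8 members lay below vehicle.

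HLA-B read 6.07, 5.22 and 5.20 with NU7441 against 6.65, 6.57 and 6.57 with vehicle. All treated arrays were below all vehicle arrays, and replicates 2 and 3 lay well below replicate 1. The gene fell by 1.10 ± 0.25 (SE, n = 3 and 3, limma adjusted p = 0.00472), or 2.14-fold. TAP2 read 4.88, 4.58 and 4.23 against 5.02, 5.36 and 5.34 with vehicle, without overlap, and fell by 0.68 ± 0.18 (limma adjusted p = 0.0102). It was detected on 2 of the 3 treated arrays, and its second probe differed by -0.29 ± 0.12, without a call (12.9% of all probes were called lower).

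TAP1 read 6.52, 5.27 and 5.42 with NU7441 against 6.76, 6.79 and 6.39 with vehicle. Treated replicate 1 lay within the vehicle range and replicates 2 and 3 far under it. The fitted fall was 0.91 ± 0.27 (limma adjusted p = 0.0195), a mean over arrays that were not alike.

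Among the members without a call in SKNMC, B2M read 11.22, 11.14 and 11.08 with NU7441 against 11.43, 11.56 and 11.43 with vehicle, a narrow difference of -0.33 ± 0.15 (limma adjusted p = 0.102) between groups that do not overlap. Its second probe differed by 0.08 ± 0.14, so the probes of B2M pointed in different directions without either being called. TAPBP read 6.41, 6.09 and 6.13 against 5.83, 5.78 and 5.78, every treated array above every vehicle array, and differed by 0.41 ± 0.19 (limma adjusted p = 0.118). HLA-E did likewise, at 7.41, 7.69 and 7.85 against 7.29, 7.28 and 7.25 (0.38 ± 0.28, limma adjusted p = 0.331). Groups that do not overlap were common among all genes, in 25% with lower and 22.7% with higher values under NU7441. HLA-F (-0.33 ± 0.20) and HLA-C (-0.03 ± 0.20) had overlapping arrays.

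The calls in SKNMC were lost, with smaller differences, when the arrays with high 28S signal were left out. Without the 3 arrays highest in that signal HLA-B was at -0.53 (adjusted p = 0.119, and from 2.04e-07 to 0.119 over its alternatives), TAP2 at -0.37 (adjusted p = 0.242, and from 0.000103 to 0.242) and TAP1 at -0.13 (adjusted p = 0.753, and from 1.36e-06 to 0.753), all without a call, while TAPBP was called higher at 0.62 (adjusted p = 0.037, and from 0.037 to 0.273). With single arrays left out, HLA-B kept its call (-1.39 to -0.95), TAP2 lost it without NU7441 replicate 3 (-0.51), and TAP1 lost it without NU7441 replicate 2 (-0.67) or 3 (-0.75) or vehicle replicate 1 (-0.85) or 2 (-0.84).

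The levels of 4 members are plotted against the 28S signal of the same array.

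**Figure D2:**
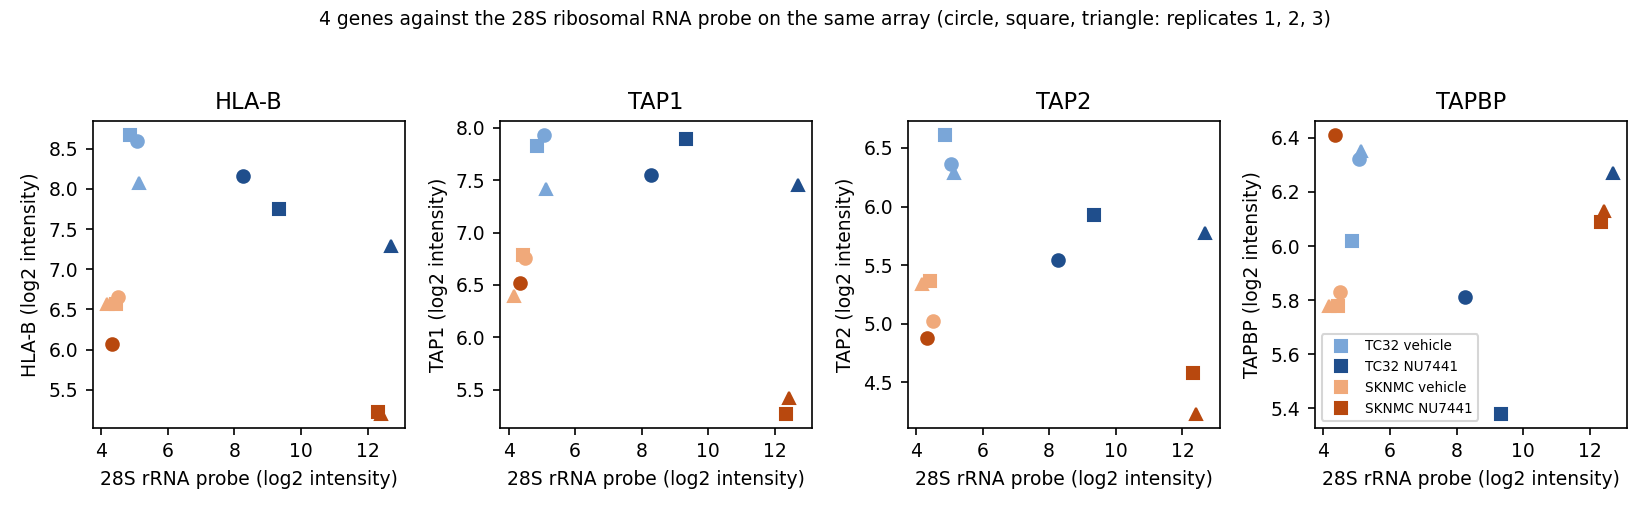
Log2 intensity of HLA-B, TAP1, TAP2 and TAPBP (y axes) against that of the 28S ribosomal RNA probe on the same array (x axes), colours for the groups and symbols for replicates 1, 2 and 3. SKNMC NU7441 replicate 1 has a 28S signal of 4.33 and a TAP1 level of 6.52 beside the vehicle arrays, and replicates 2 and 3, above 12 in 28S signal, have TAP1 levels of 5.27 and 5.42; in TC32 the TAP1 level is 7.45 on the array with a 28S signal of 12.69.

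The fourth comparison asked whether the lines responded differently. Of the 8 members 0 passed the limma test of the difference of responses at an adjusted p under 0.05, against 2.56% of all genes (0.838% lower and 1.72% higher), and 1 (TAPBP) had an unadjusted p under 0.05. TAPBP differed by -0.41 in TC32 and by 0.41 in SKNMC, a difference of responses of -0.82 ± 0.27 (limma adjusted p = 0.127). That difference was called without TC32 NU7441 replicate 3 (-1.05, limma adjusted p = 0.0144, and up to 0.256 with any other array left out). It was also called without the 3 arrays highest in 28S signal (-1.25, limma adjusted p = 0.00849), without normalization between arrays (-1.05), with median scaling (-1.02) and with array weights (-0.88), and the limma adjusted p ran from 0.00378 to 0.237 over its 12 alternatives. TAP1 differed by -0.10 and -0.91, a difference of 0.81 ± 0.38 (limma adjusted p = 0.288, 95% interval -0.0027 to 1.63), which was called without SKNMC NU7441 replicate 1 (1.2, limma adjusted p = 0.00626, and up to 0.546 with any other array left out) and with array weights (1.14, limma adjusted p = 0.00232). The TAP1 difference was 0.12 without the 3 arrays highest in 28S signal (limma adjusted p = 0.866, the highest over its alternatives). TAP2 differed by -0.67 in TC32 and by -0.68 in SKNMC, with an interval for the difference of -0.53 to 0.55, and the difference was -0.31 without those 3 arrays, with no call.

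The differences of all members are plotted for the 2 responses and for the lines under vehicle.

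**Figure D3:**
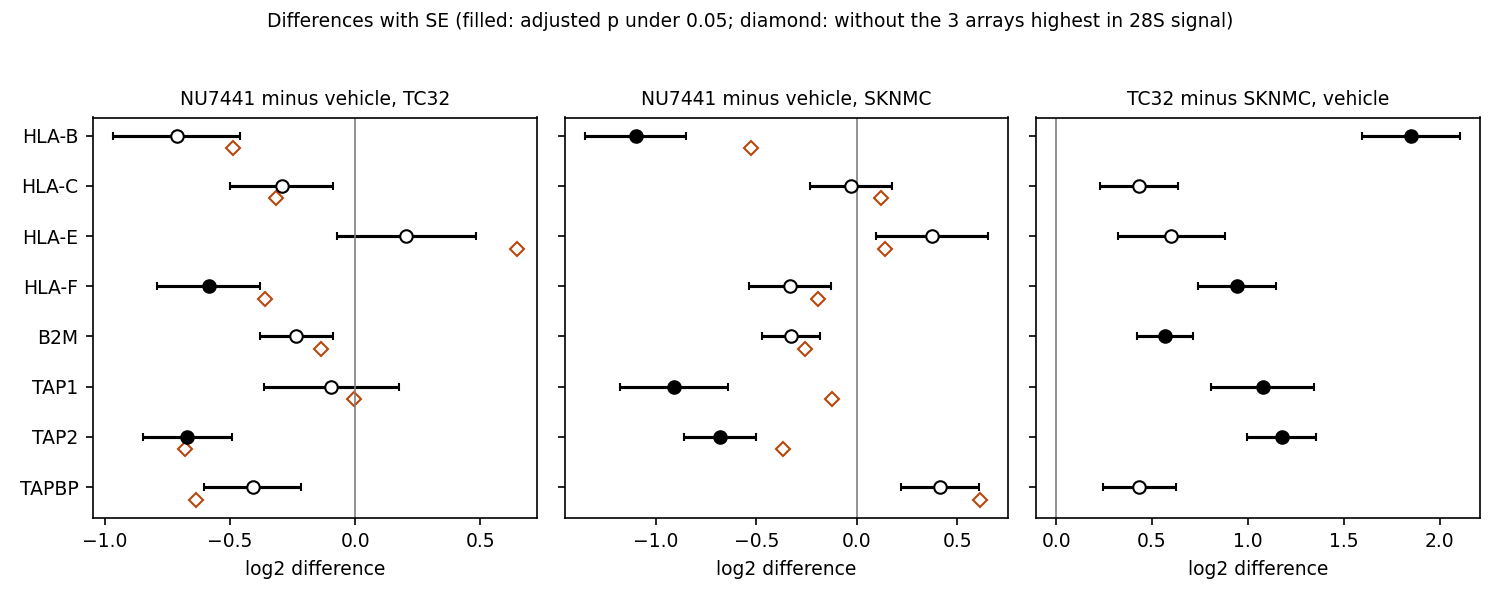
Log2 difference of each member (x axis, bars are SE) for NU7441 minus vehicle in TC32, NU7441 minus vehicle in SKNMC and TC32 minus SKNMC under vehicle, filled where the adjusted p is under 0.05, with diamonds for the response without the 3 arrays highest in 28S signal. All 8 points lie above 0 in the vehicle panel, and in SKNMC the diamonds of HLA-B (-0.53), TAP1 (-0.13) and TAP2 (-0.37) lie nearer 0 than the points.

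Ordered by group mean, 6 of the 8 genes (HLA-B, HLA-C, HLA-F, B2M, TAP1 and TAP2) ran from TC32 vehicle through TC32 NU7441 and SKNMC vehicle to SKNMC NU7441. Only for TAP2 did every neighbouring group in that order separate without overlap. How many of all genes ran in this order, or separated at every step, was not counted. Single steps without overlap were common among all genes, with lower values under NU7441 for 20.3% in TC32 and 25% in SKNMC. For HLA-B the step from TC32 NU7441 (mean 7.73) to SKNMC vehicle (6.60) was a clear gap, and the step between the TC32 groups was an overlap. For HLA-C, whose group means span 0.46, all neighbours overlapped, and for HLA-F as well. HLA-E was highest in TC32 NU7441 (8.08) and lowest in SKNMC vehicle (7.27). TAPBP was highest in TC32 vehicle (6.23) and lowest in SKNMC vehicle (5.80), with all neighbours overlapping.

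NLRC5, the transactivator, was detected on 0 of 12 arrays. Its single probe read 4.25 ± 0.05 (SD, n = 3) in TC32 vehicle, 4.23 ± 0.02 in TC32 NU7441, 4.21 ± 0.12 in SKNMC vehicle and 4.29 ± 0.05 in SKNMC NU7441. These values are those of a probe not above background, and no difference is given.

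The non-member genes whose levels ran most like a member's were sought by the root mean square of the difference between centred log2 values over the 12 arrays, among 8147 genes detected on all of them. For HLA-B, whose group means span 2.95, the nearest were TNC (0.33), an extracellular matrix glycoprotein, LMO2 (0.35), a LIM domain transcription cofactor, and HK1 (0.36), a hexokinase. For TAP1 they were LINC02076 (0.18), a long non-coding RNA, CYBRD1 (0.20), a ferric reductase, and OAT (0.21), ornithine aminotransferase. For TAP2 they were PCNX1 (0.15), SEPHS1 (0.20) and NUDT21 (0.21), a subunit of the cleavage factor that sets polyadenylation sites. These are likenesses over 12 arrays of 2 lines and carry no test.

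The genes that make and trim peptides for class I were followed beside the members. Of 15 listed, 14 were measured, and 3 fell in TC32 and 2 in SKNMC, with 0 rising in either. Over all genes 13.4% were called lower and 11.9% higher in TC32, and 16.9% lower and 15% higher in SKNMC, and the counts of each list that follows are read against these shares. The largest falls in TC32 were of PSMB8 and PSME2, which stood at -1.25 and -1.14 without the 3 arrays highest in 28S signal.
PSMB8, an immunoproteasome subunit encoded between TAP2 and TAP1, read 5.46, 5.56 and 5.62 with NU7441 against 6.83, 6.93 and 6.52 with vehicle in TC32. The arrays are far apart, and the gene fell by 1.21 ± 0.22 (limma adjusted p = 0.00127). In SKNMC it read 5.06, 4.16 and 4.29 against 4.99, 5.39 and 4.83, a difference of -0.57 ± 0.22 without a call (limma adjusted p = 0.0615), and treated replicate 1 lay within the vehicle range. PSMB8 was detected on 1 of the 3 treated SKNMC arrays, so background limits how large a fall could be seen there. The SKNMC difference was -0.0091 without the 3 arrays highest in 28S signal. Under vehicle PSMB8 was higher in TC32 than in SKNMC by 1.69 ± 0.22 (limma adjusted p = 1e-04). PSMB9, the neighbouring subunit gene, was near background, detected on 3 of 12 arrays, and differed by 0.05 in TC32 and 0.01 in SKNMC.

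PSME2, a subunit of the PA28 activator of the proteasome, read 8.21, 8.20 and 8.15 with NU7441 against 9.28, 9.23 and 9.51 with vehicle in TC32, and fell by 1.15 ± 0.16 (limma adjusted p = 0.000176). In SKNMC it read 8.46, 8.07 and 7.80 against 8.76, 8.74 and 8.62, and fell by 0.59 ± 0.16 (limma adjusted p = 0.0119). In both lines the groups do not overlap, but the SKNMC call was lost without NU7441 replicate 3 (-0.44) and without the 3 arrays highest in 28S signal (-0.24). IDE, a peptidase, fell in SKNMC by 1.10 (limma adjusted p = 0.00435), reading 6.02, 4.69 and 5.10 against 6.27, 6.45 and 6.40. In TC32 it read 5.47, 5.52 and 5.83 against 6.22, 6.18 and 6.46, without overlap and without a call. Without those 3 arrays IDE stood at a smaller difference of -0.35 in SKNMC, and was called lower in TC32 at -0.79. PSMB10 (0.26 and -0.21 in TC32 and SKNMC), PSME1 (-0.20 and -0.03) and the trimming enzymes ERAP1 (0.08 and 0.14) and ERAP2 (0.30 and 0.28) were not called in either line. Of the folding partners of class I in the endoplasmic reticulum, 8 of 10 were measured, and 1 fell in each line, HSPA5 in TC32 and SPPL2A in SKNMC; these names were chosen after their values were seen, SPPL2A lost its call without those 3 arrays (-0.52), and CALR differed by -0.15 and 0.09.

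Of 20 listed transcription factors of class I promoters 17 were measured. In TC32 1 rose and 2 fell, and in SKNMC 7 rose and 2 fell; the 2 falls of 17 are no more than the share of all genes in either line. The 2 that fell in both lines were RFX5 and RFXANK, subunits of the RFX complex. With the 3 arrays highest in 28S signal left out, 4 of the 17 rose and 1 fell in TC32. The SKNMC count then rests on a lone treated array and is not given. In that setting RFXANK stood at -0.96 in TC32 and -0.54 in SKNMC. RFXANK read 7.21, 7.26 and 7.54 with NU7441 against 8.15, 8.13 and 8.31 in TC32, and fell by 0.86 ± 0.14 (limma adjusted p = 0.000592). In SKNMC it read 7.83, 7.80 and 8.04 against 8.48, 8.4 and 8.22, and fell by 0.48 ± 0.14 (limma adjusted p = 0.0179), a call lost without SKNMC vehicle replicate 1 (-0.42) or 2 (-0.46) or NU7441 replicate 2 (-0.43). RFX5 fell by 0.48 ± 0.17 in TC32 and 0.51 ± 0.17 in SKNMC, calls that were lost in TC32 with any of the 6 TC32 arrays left out (-0.55 to -0.38), in SKNMC without replicates 1 (-0.46) and 3 (-0.45) of vehicle and 2 (-0.43) and 3 (-0.44) of NU7441, each in turn, and in both lines when the mean of its detected probes was used (-0.30 and -0.14) and without the 3 arrays highest in 28S signal (-0.38 and -0.19). RFXAP, the remaining subunit, differed by -0.25 and -0.24 without a call, and under vehicle was lower in TC32 than in SKNMC, with a difference of -1.38 ± 0.16.

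IRF1, an interferon-induced activator of class I genes, read 5.56, 5.47 and 5.50 with NU7441 against 4.90, 5.08 and 4.77 with vehicle in SKNMC, and rose by 0.60 ± 0.16 (limma adjusted p = 0.0108), a call lost without vehicle replicate 3 (0.52). In TC32 it differed by 0.13 ± 0.16. NFKB1, the precursor of an NF-kappa-B subunit, read 8.05, 9.20 and 9.34 against 7.68, 7.42 and 7.59 in SKNMC and rose by 1.3 (limma adjusted p = 0.00181), with replicates 2 and 3 the higher. Without the 3 arrays highest in 28S signal it stood at 0.49 with no call. NFYA, a subunit of the factor that binds the CCAAT box, rose by 1.00 in SKNMC and stood at 0.98 without those arrays. IRF2 differed by -0.05 in each line.

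Of 10 interferon receptor and signalling genes 9 were measured, with 1 rise in TC32 and 2 in SKNMC, near the shares of all genes. PIAS1, a SUMO ligase, rose in both, by 0.63 in TC32 and 1.04 in SKNMC. Of 7 genes listed as repressors of class I, 1 rose and 1 fell in each line, near the shares of all genes. WWP2, a ubiquitin ligase, fell by 1.06 in TC32 and by 1.61 in SKNMC, reading 6.68, 7.10 and 6.26 against 7.44, 7.76 and 8.03 in TC32 and 5.92, 5.06 and 4.83 against 6.92, 6.81 and 6.89 in SKNMC. The groups do not overlap in either line, and the SKNMC difference was -0.96 without the 3 arrays highest in 28S signal, still called. Under vehicle WWP2 was higher in TC32 than in SKNMC by 0.87 ± 0.26 (limma adjusted p = 0.0384). EZH2, the Polycomb methyltransferase, was lower in TC32 than in SKNMC under vehicle, with a difference of -0.82 ± 0.16 (limma adjusted p = 0.00337). Of 11 genes of the class II pathway 3 were measured. HLA-DMA, a chaperone of class II loading, was lower in TC32 than in SKNMC under vehicle, with a difference of -2.69 ± 0.21 (limma adjusted p = 5.25e-07). It was detected on 1 of the 3 TC32 vehicle arrays, so background limits how large a difference could be seen. HLA-DMB, its partner chain, was lower as well, with a difference of -0.54 ± 0.16 (limma adjusted p = 0.0427), and HLA-DRA, a chain of a class II molecule, differed the other way by 0.86 ± 0.35 without a call (limma adjusted p = 0.122). With NU7441 0 of the 3 were called in TC32, and in SKNMC 1, HLA-DMB, was called higher (0.48) and 0 lower. The SKNMC difference of HLA-DMB was 0.20 without the 3 arrays highest in 28S signal. HLA-DMA read 6.23, 7.03 and 7.15 with NU7441 against 7.29, 7.14 and 6.96 with vehicle in SKNMC. Its difference there was -0.90 without the 3 arrays highest in 28S signal, which rests on replicate 1 alone.

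Of 13 class I-like genes and ligands of natural killer receptors 8 were measured. In TC32 2 rose and 3 fell, and in SKNMC 0 rose and 4 fell. Of the SKNMC falls, that of MICB (-0.85) stood at -0.28 without the 3 arrays highest in 28S signal. ULBP1, a ligand of the activating receptor NKG2D, read 4.3, 4.63 and 4.4 with NU7441 against 6.29, 6.55 and 6.44 with vehicle in TC32, and was detected on 1 of the 3 treated arrays. It fell by 1.98 ± 0.22 (limma adjusted p = 3.2e-05). In SKNMC it read 4.79, 5.92 and 5.62 against 7.34, 7.32 and 7.28 and fell by 1.87 ± 0.22 (limma adjusted p = 4.57e-05), with replicate 1, the array low in 28S signal, the lowest. MICA, a further NKG2D ligand, read 6.63, 6.73 and 6.23 against 5.39, 5.42 and 5.56 in TC32 and rose by 1.07 ± 0.15 (limma adjusted p = 0.000173). In SKNMC MICA differed by -0.18 ± 0.15. PROCR, the endothelial protein C receptor, has a class I-like fold and fell in SKNMC by 1.51, reading 5.41, 4.20 and 4.45 against 6.14, 6.20 and 6.26. It was detected on 1 of the 3 treated arrays, and the difference was -0.79 without the 3 arrays highest in 28S signal, still called.

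The responses of the members and of the lists around them are plotted by line.

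**Figure D4:**
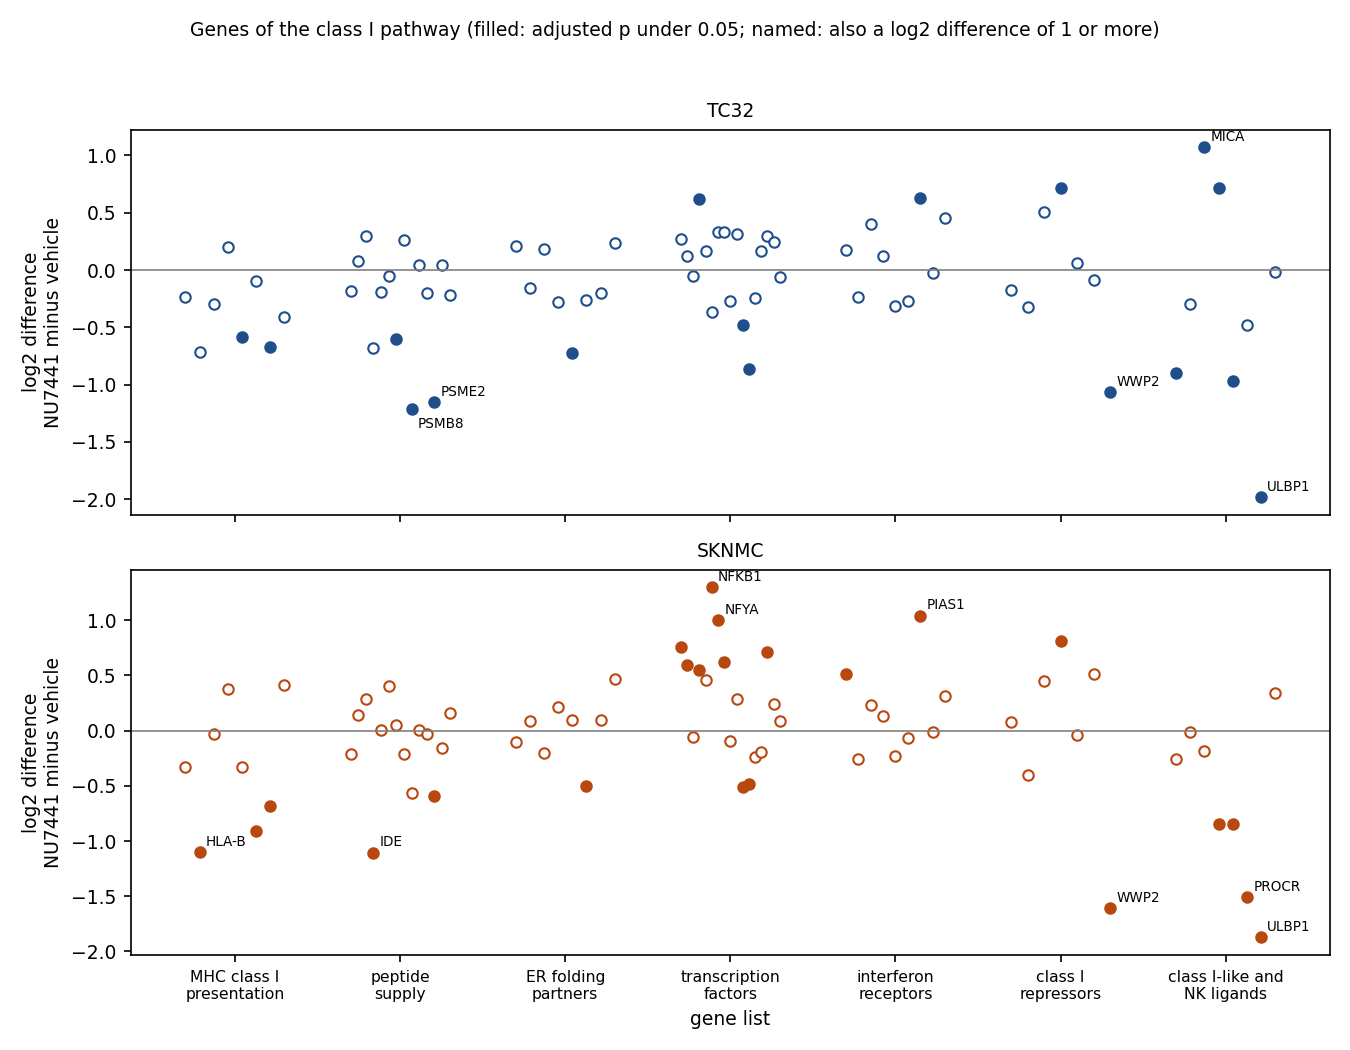
Log2 difference of NU7441 minus vehicle (y axis) for each measured gene of 7 lists (x axis), TC32 above and SKNMC below, filled where the adjusted p is under 0.05 and named where the log2 difference is also 1 or more in size. Among the members HLA-B in SKNMC (-1.10) is named, and the lowest points in both panels are of ULBP1 (-1.98 and -1.87).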

How the data were processed

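Bead intensities of 12 arrays were analysed in 4 groups of 3, assigned from the sample titles. The members and gene lists were chosen with earlier results of these data known. For each of 47319 probes the authors deposited a non-normalized intensity and a detection p-value, per the file headers. Their deposited log2 value table served as an alternative. GenomeStudio, R 3.0.2 and lumi are named in the submitters' processing notes, with roles not given in the sources used here. Of the probes, 30112 had 1 gene symbol in the platform annotation, 8 several and 17199 none; 30073 symbols were looked up through the Entrez number in RefSeq's GRCh38.p14 table.

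Intensities were normalized with neqc of limma 3.58.1 in R 4.3.3 (normexp background from the detection p-values, offset 16, quantile normalization, log2). Probes detected at a p-value under 0.05 on at least 3 arrays were kept (21753), and 12171 genes were each represented by the probe with the highest mean. A model with 4 group means was fitted to all arrays (lmFit, eBayes) with 4 contrasts. Tests were two-sided, p-values were adjusted by Benjamini-Hochberg over all genes, and a call is an adjusted p under 0.05. The groups share a gene's residual spread, and the number of arrays limits the precision. A shift of most transcripts in the same direction is removed by the quantile step. The fit was tested on simulated data. Genes named beside the members were those listed by role or with a call and a log2 difference of 1 or more. Probes called in opposite directions were found in TC32 for 21 and in SKNMC for 14 of 3310 genes measured by more than 1 probe, 0 of them members. Columns of sample values left unused numbered 0, and 0 pairs of arrays were identical. Deviations of same-numbered arrays from their group means were weakly correlated, in both directions, and the numbers were not taken to pair the arrays. Promoters were compared with Biopython 1.88, and plots drawn with matplotlib 3.10.9 in Python 3.11.15.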

Additional observations from a re-analysis of the deposited data

Results flagged for a closer look

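Among the member genes none was marked by the test of the difference of responses. In the lists around them 6 genes were, each by a limma adjusted p under 0.05 for the response to NU7441 in TC32 minus that in SKNMC. NFKB1 differed by -0.36 in TC32 and 1.3 in SKNMC, a difference of -1.66 ± 0.36 (limma adjusted p = 0.0293), which lost its call with any of 10 single arrays left out (-1.73 to -1.42). MICA, with 1.07 and -0.18, gave 1.26 ± 0.21 (limma adjusted p = 0.00629). MICB, a ligand of NKG2D like MICA, with 0.72 and -0.85, gave 1.57 ± 0.33 (limma adjusted p = 0.0242), and lost its call with any of 8 single arrays left out (1.39 to 1.56). The fibroblast markers COL3A1, with -3.43 and -1.65, DCN, with -0.06 and -1.69, and LUM, with 0.02 and -2.17, gave -1.78 ± 0.29 (limma adjusted p = 0.0054), 1.63 ± 0.19 (limma adjusted p = 0.000731) and 2.20 ± 0.21 (limma adjusted p = 9.3e-05). DCN and LUM were detected on 0 TC32 arrays, so their TC32 values are those of background and their differences of responses say nothing about TC32. Without the 3 arrays highest in 28S signal the differences of NFKB1, MICA, MICB, COL3A1, DCN and LUM were -0.87, 1.24, 1.19, -1.69, 1.87 and 2.43, each with a call, and the SKNMC response of MICB was -0.28 with none.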

How the results depend on the processing

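Over the member genes 663 of 780 values under an alternative kept direction and side of the threshold, 43 lost a call, 43 gained a call, 31 without a call moved through 0 and 0 called values turned sign. Of 8 members measured, the calls number 2 in TC32, 3 in SKNMC, 0 for the difference of responses and 5 between the lines under vehicle. Leaving out single arrays gave 0 to 3, 1 to 4, 0 to 1 and 3 to 6 member calls, with 102 to 1586 genes for the difference (main 311) and 1069 to 2429 under vehicle (main 1767). Without normalization between arrays the members called were 4 in TC32, where 4144 genes were called (main 3082), and 1 for the difference, where 510 were. SUZ12 in TC32 then turned to -0.46. Median scaling gave 4 and 1 member calls, with 4036 genes in TC32 and 471 for the difference. The share of calls that were higher was 46.9% in TC32, 47% in SKNMC, 67.2% for the difference and 37.5% under vehicle, and became 10.4%, 31.9%, 20% and 56% without normalization between arrays and 12.3%, 32.1%, 24.6% and 52.4% with median scaling; with array weights that of the difference was 52.6%. With no detection filter, with the mean of a gene's probes and with only the arrays of the comparison, 1 member was called in TC32. All genes called there numbered 2767, 3018 and 2518 in turn. The mean of probes turned ERAP2 in TC32 to -0.58 and IFNAR2 to 0.38 in TC32 and 0.37 in SKNMC. Only the arrays of the comparison gave 3429 genes under vehicle. Detection at p under 0.01 on all 12 arrays leaves fewer genes. It gave 1 member in TC32 and 3 under vehicle, with 2336 genes in TC32, 86 for the difference and 941 under vehicle. Array weights gave 4, 7, 3 and 8 member calls, with 3914 genes in TC32, 6497 in SKNMC, 3082 for the difference and 4381 under vehicle. A further minimum of 1 on the log2 scale left 0, 1 and 3 members in TC32, SKNMC and under vehicle, of 788, 1105 and 518 genes. Without the 3 arrays highest in 28S signal 4 members were called in TC32, 1 in SKNMC and 1 for the difference, with 2424 genes in SKNMC, 620 for the difference and 3362 under vehicle, and RNA28SN5 turned to -0.033 in SKNMC and 3.81 for the difference. With the replicate number as a block the member calls were 3, 3, 0 and 5, and the block moved no count of all genes by over 1.5 times (2936 in TC32, 3786 in SKNMC, 225 for the difference and 1664 under vehicle). Deviations of same-numbered arrays correlated from -0.13 to 0.15 over all pairs of groups, and those of different-numbered arrays from -0.17 to 0.18. The numbers were therefore not taken to pair the arrays, but these values cannot show whether a number marks a shared culture or day. For changes outside those stated, the cause was not tested. Dim probes limit the rest: HLA-C, the second TAP2, HLA-F and TAPBP probes and PSMB9 lie near background, where small differences cannot be resolved.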
